A study of Ovis aries with 2 samples.

Results

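The 7 genes described here build the chromosome axis of meiosis or take part in the recombination that happens on it: SYCP1, SYCP2, SYCP3, SMC1B, TEX11, MLH3 and MND1. They were taken by symbol from the 27054 genes listed in the single-cell count matrices of 2 sheep testis libraries, and each symbol named 1 gene. All 7 were detected in both libraries.

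In meiotic prophase each chromosome is folded along a protein axis, and the axes of paired homologous chromosomes are then joined by the synaptonemal complex. Cohesin rings made for meiosis hold the axis together, and breaks made in the DNA are repaired on it, partly as crossovers that tie the homologues to each other until the first division. Round spermatids are the haploid cells that come out of both divisions and have yet to reshape into sperm.

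The groups were 1 control library and 1 library with the treatment label ZEA0.75, called ZEA here; no unit stands beside 0.75. ZEA commonly stands for zearalenone, an oestrogenic mould toxin, but the labels neither write this out nor say how it was given. Both groups were testis aged 8 months, both were prepared with a 10x Genomics 3' kit (V3), and no strain or genotype is given. With 1 library per group no test between groups was possible: every interval below is a 95% interval for counting error only, and treatment cannot be told apart from any other way in which the samples or preparations differed.

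The deposited matrices held 53044981 unique molecular identifiers (UMIs, each counting 1 captured RNA molecule) in 7030 control barcodes and 22148456 in 8809 ZEA barcodes, and 15 barcode sequences occurred in both. After filtering, 6811 control and 8804 ZEA cells remained, with medians of 4121 and 1405.5 UMIs per cell. The libraries held different cells: 1105 late spermatocyte-like cells in the control against 8 in ZEA, and 9 endothelial-like cells against 2660. Members and related meiotic genes were kept out of the clustering and of the marker lists, so that the cell classes were not made from the genes described. Unnamed clusters held 3111 control and 2595 ZEA cells.

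The stages of the control library were set in an order by markers. A cluster of 27 cells was high in TKTL1, used here as a spermatogonia marker, at 1913 CPM (counts scaled by the summed UMIs of the cluster, in the usual CPM unit). It was followed by a TEX101-high cluster of 31 early spermatocyte-like cells, then by 2 PIWIL1-high clusters, a and b, of 49 and 47 cells, and by an AURKA-high cluster of 1011 late spermatocyte-like cells. After these came round spermatid-like clusters 8 (625 cells) and 4 (345 cells), a deeply sequenced spermatid cluster of 491 cells with no name, and elongating spermatid-like clusters 11 and 3. HMGB4, a chromatin protein gene of spermatids, went from 5683 CPM in cluster 8 to 14644 CPM in cluster 3. The TKTL1-high and the first PIWIL1-high clusters had mixed markers and stayed unnamed. The TKTL1-high cluster also had 150 CPM of STRA8 and 234 CPM of TEX101. A second TKTL1-high cluster, of 6 spermatogonia-like control cells, was not in the order. Its SMC1B, TEX11 and MND1 levels were 238, 364 and 301 CPM. The first 4 clusters of the order came from splitting 1 mixed cluster after it had been looked at. A further PIWIL1-high cluster, of 47 late spermatocyte-like control cells with a median of 823 UMIs, was also left out of the order. It had 351 CPM of PIWIL1, against 324 CPM in PIWIL1-high cluster b, 580 CPM of SMC1B and 1390 CPM of MLH3. The order is a marker order and not a measured time.

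The members did not share 1 peak. Along the ordered control clusters, TEX11, MND1, SMC1B and SYCP3 had their highest level in the TKTL1-high cells, whose markers were mixed. SYCP1 and SYCP2 had it in the TEX101-high cells, and MLH3 in the first PIWIL1-high cluster. All except MND1 were at under 12% of their own highest level in both round spermatid-like clusters, and MND1 had a second maximum there.

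**Figure D1:**
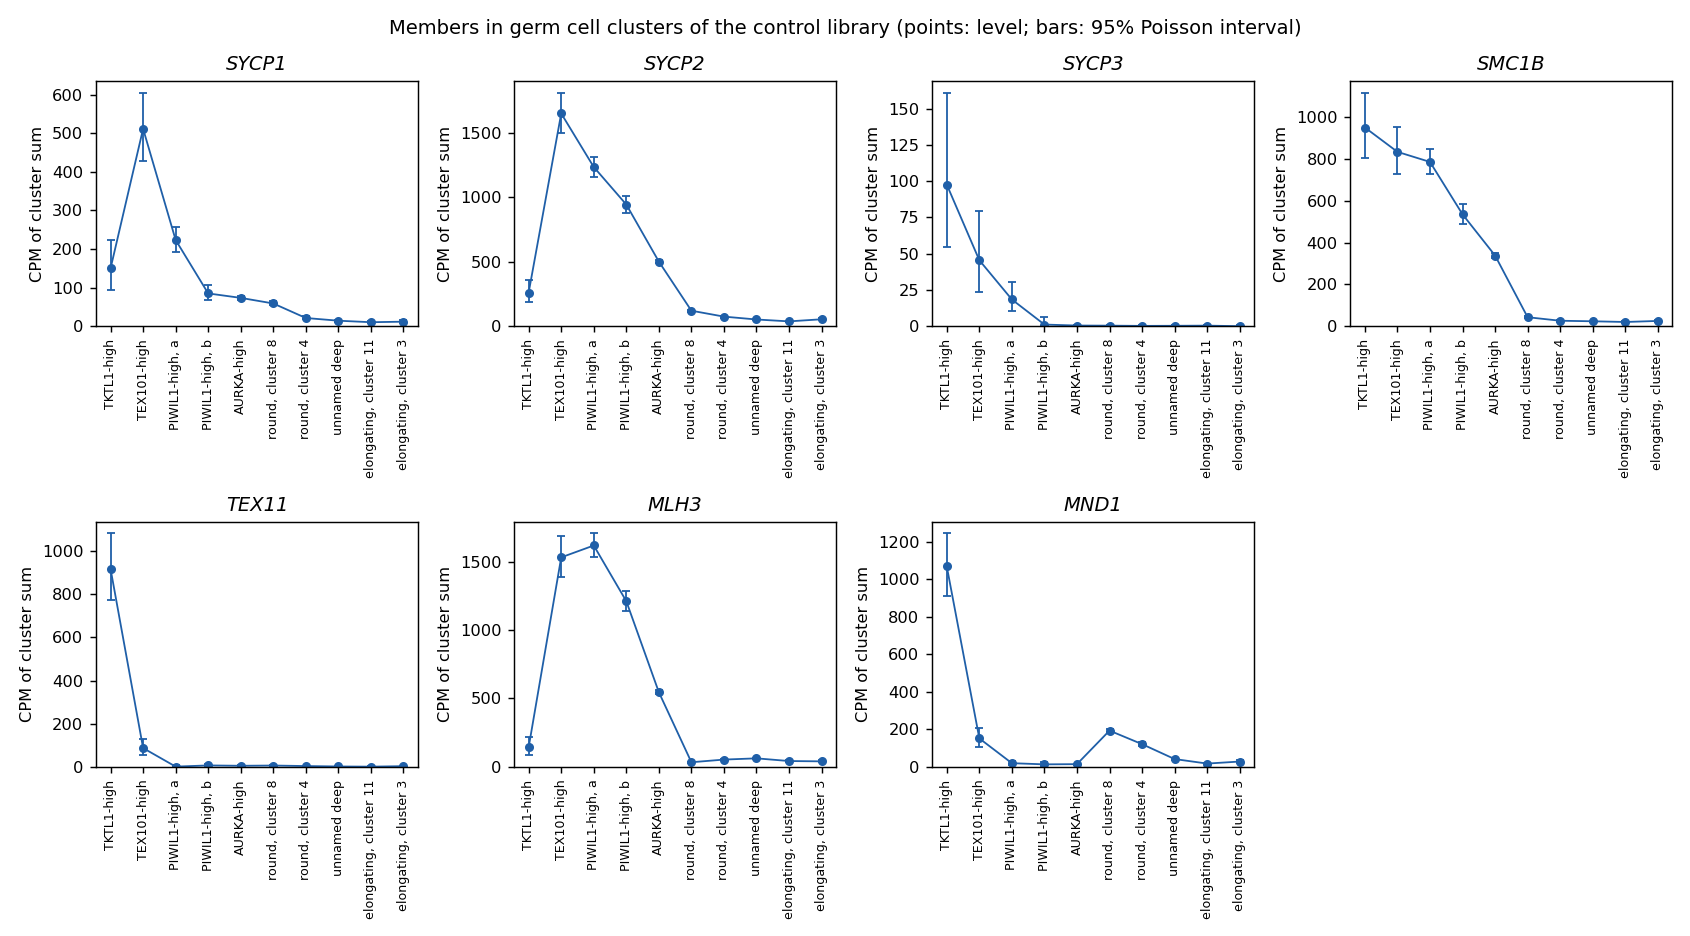
Level of each member (CPM of the cluster's summed counts, linear axis from 0) in 10 germ cell clusters of the control library, in marker order from left to right; points are the cluster level and bars the 95% Poisson interval. MND1 is high on the far left, low through the spermatocyte clusters and higher again in round spermatid-like cluster 8, at 193 CPM.

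SYCP1 encodes the transverse filament that bridges the paired axes. Its level was 150 CPM (95% interval 94.9 to 225) in the TKTL1-high cluster, 512 CPM (429 to 605) in the TEX101-high cluster and 223 CPM (192 to 258) in PIWIL1-high cluster a. It was 84.9 CPM (66.9 to 106) in PIWIL1-high cluster b and 73.3 CPM (68.5 to 78.4) in the AURKA-high cluster, which do not differ beyond counting error. Round spermatid-like clusters 8 and 4 had 58.8 and 21.2 CPM. SYCP1 was thus highest in a single cluster of the order, and the AURKA-high cells kept 14.3% of that level.

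SYCP2 encodes a protein of the axis itself, to which the transverse filaments attach. It was at 260 CPM (186 to 354) in the TKTL1-high cells, 1648 CPM (1497 to 1811) in the TEX101-high cells and 1233 CPM (1158 to 1312) in PIWIL1-high cluster a. PIWIL1-high cluster b had 943 CPM and the AURKA-high cluster 500 CPM, or 30.4% of the highest level. SYCP2 therefore kept a larger share of its maximum into the AURKA-high cells than SYCP1 did, and was at 7.27% of it in round spermatid-like cluster 8.

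SYCP3, the partner of SYCP2 on the axis, gave few counts: 66 UMIs in all kept control cells and 10 in all kept ZEA cells. The TKTL1-high cluster held 15 of the control UMIs (97.6 CPM, 54.6 to 161), the TEX101-high cluster 12 (45.5 CPM, 23.5 to 79.4) and PIWIL1-high cluster a 15 (18.4 CPM, 10.3 to 30.4). The AURKA-high cluster had 5 UMIs in 1011 cells, or 0.43 CPM (0.14 to 1.01). The SYCP3 counts thus lay at the early end of the order, and from the AURKA-high cells on its level was at most 0.43 CPM.

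SMC1B encodes a cohesin subunit made for meiosis. It stood at 950 CPM (802 to 1117) in the TKTL1-high cells, 834 CPM (727 to 951) in the TEX101-high cells and 785 CPM (726 to 849) in PIWIL1-high cluster a. These neighbours do not differ beyond counting error. It was then 535 CPM in PIWIL1-high cluster b, 338 CPM in the AURKA-high cluster and 42.9 CPM (38.6 to 47.5) in round spermatid-like cluster 8. SMC1B had the flattest course of the 7 up to the AURKA-high cells, where it kept 35.6% of its highest level.

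TEX11 is an X-linked gene needed for pairing and crossing over. Its level was 918 CPM (772 to 1082) in the TKTL1-high cells, 87.2 CPM (55.2 to 131) in the TEX101-high cells and 1.23 CPM, from 1 UMI, in PIWIL1-high cluster a. From there to the last cluster it lay between 0.99 and 6.70 CPM. The 33 control cells of both TKTL1-high early clusters made up 0.43% of the library's UMIs and held 38.0% of its 432 TEX11 UMIs. In the ZEA library 14 such cells made up 0.35% of the UMIs and held 22.4% of 156. Larger shares of the ZEA TEX11 UMIs lay in round spermatid-like cells (37.8%, with 25.1% of the library's UMIs) and somatic clusters (25.0%, with 58.7%). TEX11 was thus enriched in a few early cells of both libraries, but in ZEA they did not hold the largest share.

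MND1 acts with PSMC3IP to help the recombinase DMC1 invade the homologous chromosome. It had 1067 CPM (910 to 1244) in the TKTL1-high cells, 152 CPM (108 to 206) in the TEX101-high cells and 14.5 CPM (12.4 to 16.9) in the AURKA-high cells. Round spermatid-like cluster 8 then had 193 CPM (184 to 203) and cluster 4 had 121 CPM (112 to 131), and the level was 41.6 CPM in the unnamed deep spermatid cluster and 17.5 CPM in elongating cluster 11. The round spermatid-like class held 62.6% of all control MND1 UMIs and 27.3% of the library's UMIs. MND1 thus had 2 separate maxima, before and after the AURKA-high spermatocyte stage.

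MLH3 encodes a mismatch repair protein that acts in resolving crossovers. It was at 143 CPM (89.7 to 217) in the TKTL1-high cells, 1531 CPM (1385 to 1688) in the TEX101-high cells and 1618 CPM (1531 to 1707) in PIWIL1-high cluster a, and the last 2 do not differ beyond counting error. PIWIL1-high cluster b had 1211 CPM and the AURKA-high cluster 546 CPM. Round spermatid-like cluster 8 had 33.8 CPM (30.02 to 37.95), which is 2.09% of the highest level. MLH3 thus had its maximum over the TEX101-high cells and PIWIL1-high cluster a, and was low in spermatids.

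The ZEA library had too few cells before the spermatid stage for such a course. Its spermatogonia-like cells numbered 13, against 6 in the control. TEX11 was at 452 CPM there (315 to 629) against 364 CPM (231 to 547), MND1 had 284 CPM (178 to 430) against 301 CPM (181 to 470), and SYCP1 had 271 CPM (168 to 415) against 269 CPM (157 to 431). SMC1B had 349 CPM (230 to 507) against 238 CPM (133 to 392). For these 4 members the intervals of the libraries overlapped in spermatogonia-like cells, which at this depth does not show that they were alike. Of the other members, SYCP2 had 5 and 6 UMIs, MLH3 5 and 11 and SYCP3 0 and 1, ZEA first. Only 1 early and 8 late spermatocyte-like cells were found in ZEA, and they held 10 and 16 UMIs of SYCP2 and 8 and 4 of SYCP1.

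A list of other meiotic genes, chosen by function, was followed along the same control clusters. Of its 50 genes in the matrices, 38 had at least 50 UMIs in the ordered clusters. Their highest level lay in the TKTL1-high cells for 12, in the TEX101-high cells for 9, in the PIWIL1-high clusters for 7 (a) and 1 (b), in the AURKA-high cells for 2, in round spermatid-like cluster 8 for 4 and in the unnamed deep spermatid cluster for 3. The genes named in the rest of this paragraph were picked after their values were seen. The cohesin core genes SMC3 and SMC1A, which all dividing cells use, were highest in the TKTL1-high cells, at 1347 and 495 CPM, and were at 1.17 and 1.29 CPM in cluster 8. The central element gene C14orf39 (189 CPM) and SPATA22 (682 CPM), which binds single-stranded DNA in recombination, were highest with SYCP1 and SYCP2 in the TEX101-high cells.

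The 4 genes highest in round spermatid-like cluster 8 were DMC1, HSF2BP, MSH4 and C11orf80. DMC1, the meiotic recombinase that MND1 assists, was at 6.17 CPM in the AURKA-high cells and 94.3 CPM (87.9 to 101) in cluster 8, a step in the same direction as MND1. HSF2BP, which helps to load recombinases, was at 134 and 286 CPM. PSMC3IP, the partner of MND1, was at 19.5 CPM in the AURKA-high cells and 1.64 CPM in cluster 8. The second maximum of MND1 was therefore shared by DMC1 and not by PSMC3IP.

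Profiles were compared over the 11 control clusters of at least 50 cells. These leave out the small early clusters and include a Sertoli-like cluster of 71 cells and shallow unnamed germ clusters. SYCP2 and SMC1B had the most similar profiles among the members, with a Pearson r of 0.97 on log2(CPM + 1), and SYCP1 and SYCP2 had 0.91. MLH3 and MND1 had an r of -0.36. The 6 genes outside the lists whose profile was nearest to the members' mean were VIRMA (r = 0.985), RIF1 (0.985), PRPF8 (0.984), CPSF3 (0.982), PPIL4 (0.980) and KIF4A (0.980). The members themselves had r from 0.30 for MND1 to 0.95 for SYCP2 with that mean, in which SYCP3 rests on 20 UMIs. These values describe clusters of 1 library that also differ in depth, so they carry no p-value.

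Persistence into round spermatids was measured as the level in the whole round spermatid-like class, as a percent of the gene's level in its highest germ class of at least 50 cells. In the control the classes large enough were late spermatocyte-like, round and elongating spermatid-like. The small early clusters were left out, so the percents below are not of the highest level along the marker order. For SYCP1, round spermatid-like clusters 8 and 4 had 11.5% and 4.14% of its level in the TEX101-high cells. SYCP1 went from 75.2 to 44.4 CPM and kept 59.0%, SYCP2 from 546 to 102 CPM and kept 18.8%, SMC1B from 359 to 36.5 CPM and kept 10.2%, and MLH3 from 617 to 41.3 CPM and kept 6.69%. MND1 (14.4 to 165 CPM) was highest in the round class. TEX11 had 5.08 CPM (3.92 to 6.48) and 5.44 CPM (4.28 to 6.82), which do not differ beyond counting error. Of the 6 members with enough counts, 3 were under 50% of their highest class. That number is 5 when unnamed clusters are put in their best-scoring class or when called doublets are kept. SYCP1 kept 16.6% and 19.5% in those 2 settings. In ZEA only the round and elongating classes had 50 cells, so that its persistence relative to spermatocytes could not be measured.

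In round spermatid-like cells, 4 members (SYCP1, MND1, SMC1B and SYCP2) were at least 2-fold higher in the ZEA library than in the control, TEX11 was just under that fold, and MLH3 was at the same level within counting error. This class had 976 control cells, mostly clusters 8 and 4 (625 and 345 cells), with a median of 13049 UMIs. The ZEA library had 1146 cells, 1145 of them in cluster 10, with a median of 1934.5 UMIs, so different clusters hold most of the class in each library. The round spermatid markers ACRV1 and ZPBP, genes of the acrosome, had 325 and 891 CPM in the control and 352 and 908 CPM in ZEA. All 10 round spermatid markers found summed to 8525 and 7518 CPM, control first, with intervals apart. Without TMCO2, the highest of them at 3271 and 2461 CPM, the sums were 5254 and 5057 CPM. The summed list was thus lower in ZEA, which ACRV1 and ZPBP alone do not show.

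In these cells the level of SYCP1 was 44.4 CPM (41.0 to 48.1) for the control and 179 CPM (168 to 190) for ZEA. The ZEA level was 4.03-fold the control level, a log2 ratio of 2.01 (1.86 to 2.16), which was the highest of the members that had enough counts. MND1 had 165 CPM (159 to 172) and 398 CPM (382 to 415), a log2 ratio of 1.27 (1.18 to 1.35). Both intervals lie above 1, which is 2-fold on this scale.

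SMC1B was at 36.5 CPM (33.4 to 39.8) in control cells against 89.3 CPM (81.6 to 97.5) in ZEA cells, a log2 ratio of 1.29 (1.11 to 1.47). SYCP2 had 102 CPM (97.2 to 108) and 211 CPM (199 to 223), a log2 ratio of 1.04 (0.93 to 1.15), with an interval on both sides of 2-fold. SYCP2 and TEX11 are the members just inside and just outside the 2-fold limit. TEX11 had 5.44 CPM (4.28 to 6.82) and 10.6 CPM (8.08 to 13.7), a log2 ratio of 0.96 (0.45 to 1.48), from 75 and 59 UMIs.

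MLH3 was at 41.3 CPM (38.0 to 44.8) in control cells against 40.5 CPM (35.4 to 46.1) in ZEA cells, a log2 ratio of -0.03 (-0.26 to 0.20). SYCP3 had 4 and 7 UMIs and did not have enough counts to enter. MLH3, which in the control kept the smallest share of its late spermatocyte-like level, was thus the member without a difference beyond counting error.

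**Figure D2:**
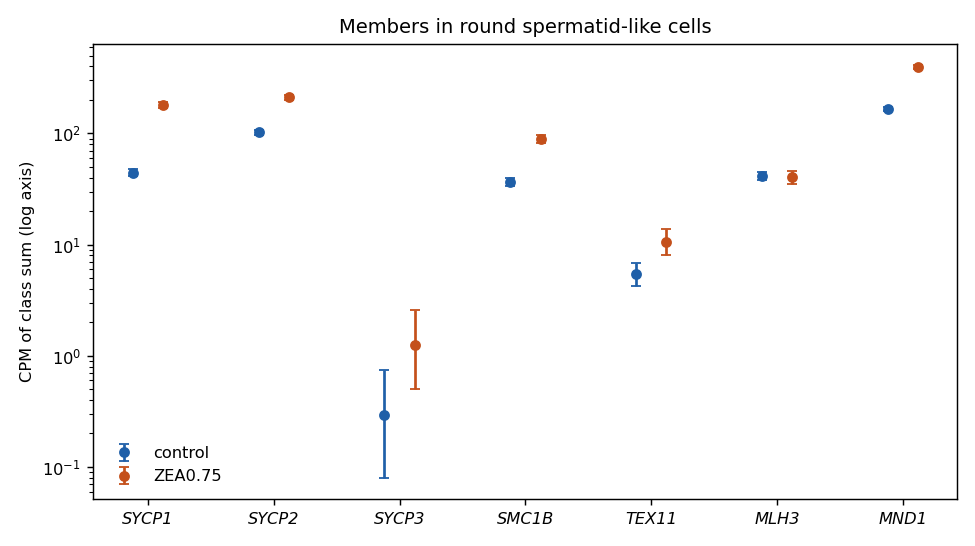
Level of each member (CPM of the class's summed counts, log axis) in round spermatid-like cells of the control (976 cells) and ZEA0.75 (1146 cells) libraries; bars are 95% Poisson intervals. The ZEA points lie above the control points for SYCP1, SYCP2, SMC1B, TEX11 and MND1 and beside them for MLH3; SYCP3 rests on 4 and 7 UMIs.

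A gene entered this comparison with at least 50 UMIs in both classes together and a UMI in at least 5% of the cells of 1 library. Of the 7617 genes that entered, 13.9% were at least 2-fold higher in ZEA and 6.12% at least 2-fold lower. Of the 7 members 6 entered, 4 were higher and none was lower, and their median log2 ratio was 1.15 against 0.20 over all genes that entered. The share of members past 2-fold was thus above the background, in a list of 6 genes chosen with earlier results of these data known. Among cells of like HMGB4 level, described below with their own background, 0 of 5 members were past 2-fold. Dividing by the median gene ratio in place of the total lowers each log2 ratio by 0.20, takes SYCP2 to 0.84 and leaves 3 members past 2-fold.

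**Figure D3:**
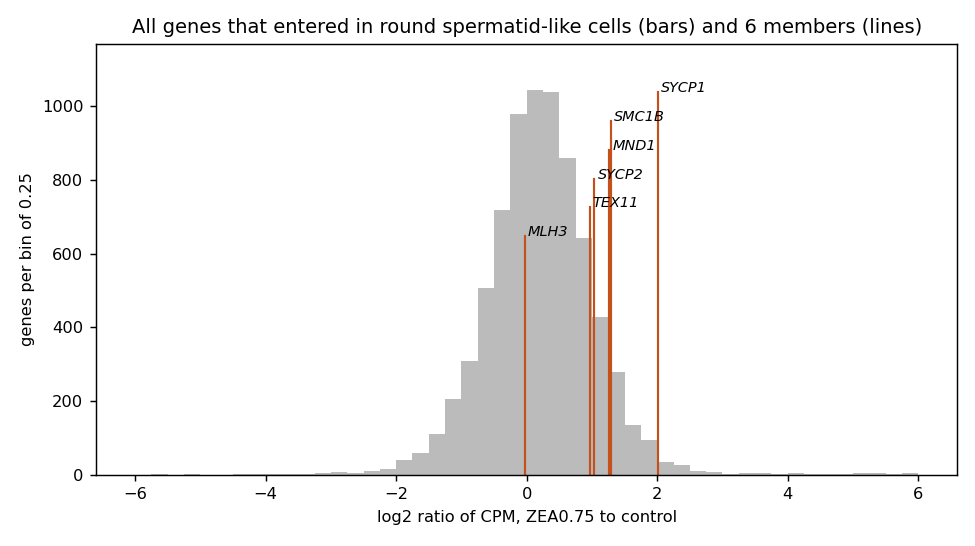
Log2 ratio of CPM, ZEA0.75 to control, in round spermatid-like cells for all 7617 genes that entered (grey bars, number of genes per bin of 0.25) with the 6 members that entered as vertical lines, whose heights carry no value. MLH3 lies near the middle of the bars and SYCP1, at 2.01, in their right tail.

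SYCP1, MND1, SYCP2 and SMC1B were also found in a larger share of ZEA than of control round spermatid-like cells once depth was made equal. With each cell thinned to 500 UMIs, SYCP1 was found in 2.36% of control (23 of 976) and 12.2% of ZEA (140 of 1146, 10.4 to 14.3) round spermatid-like cells, and MND1 in 6.66% (5.18 to 8.41) and 17.3% (15.1 to 19.6). In endothelial-like cells of the ZEA library (median 2188 UMIs before thinning), which should lack both, the thinned shares were 1.62% (1.17 to 2.17) and 3.16% (2.53 to 3.89). The ZEA round spermatid-like cells were thus above the share found in cells that should lack these genes. For MLH3 the share was 2.15% in the control and 2.27% (1.49 to 3.31) in ZEA, against 1.80% (1.33 to 2.39) in endothelial-like cells, so that the ZEA share reads as background. Without thinning, the shares were 40.8% and 44.5% for SYCP1 and 84.7% and 61.3% for MND1. The control had only 58 cells in somatic classes, with no UMI of either gene after thinning.

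Depth moved with the SYCP1 level inside the ZEA library and not with that of MND1. SYCP1 had 483 CPM (396 to 585) across ZEA round spermatid-like cells of under 1000 UMIs, 353 CPM from 1000 to 2000 UMIs, 198 CPM up to 5000, 155 CPM up to 10000 and 140 CPM (127 to 154) at 10000 or more. MND1 had between 380 and 420 CPM in the same 5 groups. At 10000 or more UMIs, where the control had 811 cells and ZEA 211, SYCP1 had 43.6 CPM (40.0 to 47.4) in the control and MND1 had 164 CPM (157 to 172) against 402 CPM (379 to 426) in ZEA. The higher ZEA levels of both genes were therefore present among the deepest cells. SYCP2 and SMC1B had 100 and 35.3 CPM there in the control and 213 and 85.8 CPM in ZEA.

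**Figure D4:**
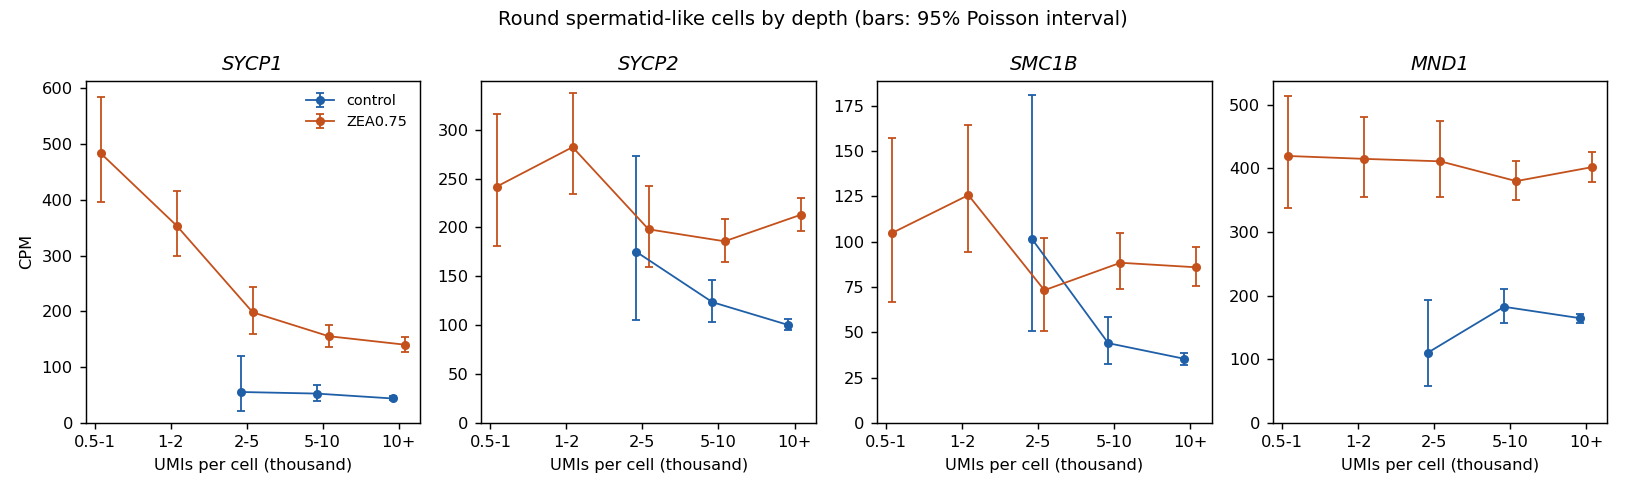
Level of SYCP1, SYCP2, SMC1B and MND1 (CPM, linear axis from 0) in round spermatid-like cells grouped by UMIs per cell, for the control and ZEA0.75 libraries; bars are 95% Poisson intervals. SYCP1 goes from 483 to 140 CPM with depth in ZEA, MND1 stays between 380 and 420 CPM, and control cells under 2000 UMIs were too few to plot.

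At a finer clustering, resolution 2, the ZEA round spermatid-like cells fell into 3 clusters. The deepest, 382 cells with a median of 9633 UMIs, had 169 CPM of SYCP1 and 407 CPM of MND1. A cluster of 384 cells with a median of 1062.5 UMIs had 583 CPM (516 to 655) of SYCP1 and 424 CPM of MND1, and 1 of 376 cells with a median of 1631 UMIs had 54.9 CPM (42.7 to 69.4) and 363 CPM. Within the library SYCP1 thus differed widely between the shallow clusters, while the MND1 levels lay close together. HMGB4 was at 3084, 3573 and 5950 CPM in the same 3 clusters, so that the cluster with least SYCP1 had most HMGB4.

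Markers of stage also differed between the libraries within the class. HMGB4 was at 6481 CPM in control and 3775 CPM in ZEA cells, SPEM1, a gene of late spermatids, had 562 and 233 CPM, and the spermatocyte genes AURKA and PIWIL1 had 45.2 and 9.73 against 62.4 and 16.0 CPM. The 12 late spermatocyte markers found had a summed level of 2743 CPM (2715 to 2770) against 4386 CPM (4331 to 4441) in ZEA, with OVOL1 at 0 in both. Most of that difference was in CLGN, a chaperone gene, at 1225 and 2495 CPM, and the other markers summed to 1517 and 1890 CPM. The 7 endothelial markers found summed to 1.74 CPM, with 3 at 0, and 18.7 CPM, with none at 0. The 7 peritubular myoid markers summed to 10.96 CPM, with 4 at 0, and 162 CPM, with 1 at 0. The 7 stromal fibroblast markers summed to 172 and 156 CPM, and to 3.92 and 55.1 CPM without COL3A1. The 7 perivascular markers summed to 31.0 and 30.4 CPM, and to 1.81 and 13.7 CPM without ABCC9. The 4 early spermatocyte markers found summed to 154 and 168 CPM, and to 58.4 and 55.2 CPM without MEIOC. The ZEA cells were thus lower in late spermatid genes and higher in late spermatocyte, endothelial and peritubular myoid RNA. The part of these in the member differences was not tested.

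To set cells of like HMGB4 level side by side, round spermatid-like cells of at least 5000 UMIs were divided by their HMGB4 level, a step added after the data had been seen. Cells of 2000 to 4000 CPM numbered 46 in the control and 219 in ZEA, those of 4000 to 6000 CPM 326 and 96, and those of 6000 to 8000 CPM 421 and 38. Under 2000 CPM there were 49 ZEA cells and no control cell. The ZEA cells thus lay mostly in the lowest windows and the control cells in the higher ones.

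MND1 stayed higher in ZEA in all 3 windows, whereas the SYCP1 difference was smaller in each. MND1 had 220 CPM in control and 422 CPM in ZEA cells of the lowest window, 204 and 396 CPM in the middle window and 147 and 291 CPM in the highest, with log2 ratios of 0.94 (0.68 to 1.205), 0.96 (0.78 to 1.14) and 0.98 (0.68 to 1.26). SYCP1 had 117 and 174 CPM, then 64.6 and 76.5 CPM, then 31.7 and 33.7 CPM. Its log2 ratios were 0.58 (0.21 to 0.96), 0.24 (-0.15 to 0.63) and 0.09 (-0.85 to 0.89), where the whole class gave 2.01 and cells of at least 5000 UMIs gave 1.71. In both libraries SYCP1 was lower the higher HMGB4 was.

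SYCP2 had log2 ratios of 0.05 (-0.23 to 0.34), 0.37 (0.10 to 0.63) and 0.16 (-0.37 to 0.64) in the 3 windows, and SMC1B of 0.76 (0.24 to 1.32), 0.28 (-0.18 to 0.71) and 0.66 (-0.13 to 1.36). MLH3 had -0.10, -0.24 and 0.39, each with an interval that holds 0. In each window 5 members entered and none was at least 2-fold higher or lower. The background of genes at least 2-fold higher was 7.32%, 4.96% and 5.64% of the 5069, 5831 and 6153 genes that entered, and that of genes at least 2-fold lower was 2.39%, 4.73% and 8.39%. The windows do not make all stage markers alike: SPEM1 had a log2 ratio of -1.31 in the lowest window, AURKA had -0.66, -0.95 and -1.81, and TNP1, a gene of late spermatid chromatin, had -0.10, 0.63 and 0.70. HMGB4 itself stayed lower in ZEA within each window, at -0.25 (-0.32 to -0.18), -0.07 (-0.12 to -0.02) and -0.06 (-0.12 to -0.0047). The part of these marker differences in the MND1 and SYCP1 differences was not tested.

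**Figure D5:**
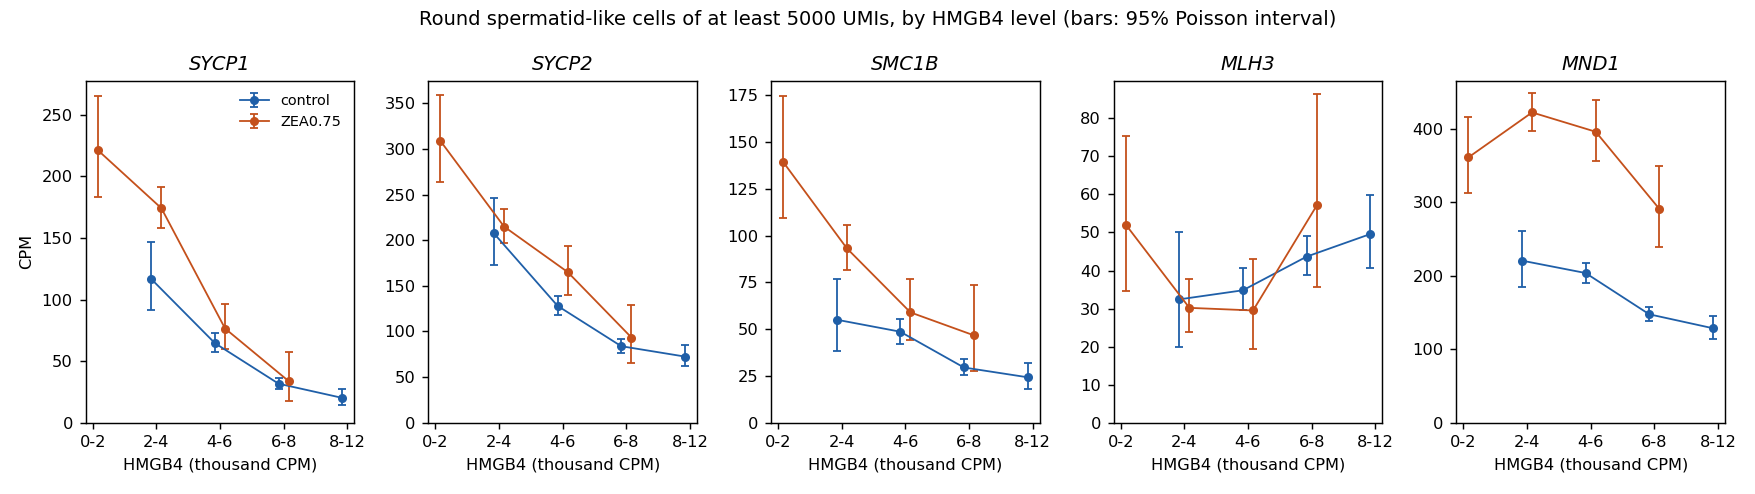
Level of 5 members (CPM, linear axis from 0) in round spermatid-like cells of at least 5000 UMIs, grouped by HMGB4 level (axis labels are CPM divided by 1000), for the control and ZEA0.75 libraries; bars are 95% Poisson intervals and groups under 20 cells are not drawn. The MND1 lines stay apart (204 and 396 CPM in the middle group), and the SYCP1 lines meet at the right (31.7 and 33.7 CPM).

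The other meiotic genes had both higher and lower levels in ZEA than in control round spermatid-like cells. Of the 50 list genes found, 26 entered, 2 were at least 2-fold higher in ZEA and 2 at least 2-fold lower, with a median log2 ratio of 0.32 against 0.20 over all genes. That is a smaller share of higher genes than the 13.9% over all genes that entered, and a share of lower genes near the 6.12%. The 5 highest were TERB1, which tethers telomeres to the nuclear envelope (41.1 CPM in the control and 142 CPM in ZEA, log2 ratio 1.79, 1.63 to 1.95), SHOC1, a crossover factor (8.71 and 24.3 CPM, 1.48, 1.11 to 1.85), CCDC36 (0.93), SPDYA (0.85) and C11orf80 (0.81). CCDC36 and C11orf80 act in making the DNA breaks, and SPDYA activates CDK2 at telomeres. The 5 lowest were PRR19, a crossover factor (11.98 and 4.86 CPM, -1.30, -1.95 to -0.71), MUS81, a nuclease subunit (3.99 and 1.98 CPM, -1.01, -2.10 to -0.06), TRIP13 (-0.98), CCDC155 (-0.89) and RAD21 (-0.77). TRIP13 takes axis proteins off the synapsed chromosomes, CCDC155 links telomeres to the cytoskeleton, and RAD21 is a general cohesin subunit.

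By role, 7 genes listed under axis and synaptonemal complex, other than the members, entered, and none was past 2-fold. They were HORMAD1, HORMAD2, SYCE1, SYCE2, SYCE3, SKP1 and TRIP13, and their median log2 ratio, 0.22, was the value of SKP1. SYCE1, a central element gene, had 752 CPM in control and 719 CPM in ZEA round spermatid-like cells. The 4 strand invasion genes that entered had a median of 0.67, with DMC1 at 86.8 and 100 CPM (0.21, 0.06 to 0.36). DMC1, which shared the second maximum of MND1 in the control, thus had a lower log2 ratio than MND1, at 1.27, with intervals apart. The 3 genes of break formation had a median of 0.81, all above 0, the 7 crossover genes of 0.20 and the 4 telomere genes of 0.37. RAD21 was the 1 cohesin gene that entered, at -0.77. SMC3 (13 and 46 UMIs, control first), STAG1 (38 and 33) and STAG3 (38 and 19) missed only the limit of 5% of cells. Their log2 ratios were 3.13 (2.22 to 4.15), 1.11 (0.39 to 1.82) and 0.31 (-0.57 to 1.14). RAD21 thus does not stand for the cohesin genes as a group.

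In elongating spermatid-like cells SYCP1, SYCP2, SMC1B, TEX11 and MND1 were lower than in round spermatid-like cells of the same library, with intervals apart. MLH3 had overlapping intervals, at 42.1 and 41.3 CPM in the control and 29.3 and 40.5 CPM (35.4 to 46.1) in ZEA, elongating first. SYCP3 had 3 and 4 UMIs in the control and 0 and 7 in ZEA, too few to compare. The elongating class had 1453 control cells, mostly clusters 3 and 11 with a class median of 6333 UMIs, and 968 ZEA cells, mostly cluster 20, with a median of 1760 UMIs. MND1 was at 20.8 CPM (18.2 to 23.6) against 56.8 CPM (47.2 to 67.9), control first, and SYCP1 had 10.7 CPM (8.85 to 12.7) and 24.2 CPM (18.1 to 31.8). SMC1B had 21.5 CPM (18.9 to 24.3) and 32.1 CPM (25.0 to 40.7), and SYCP2 had 41.9 CPM (38.3 to 45.8) and 54.0 CPM (44.7 to 64.8). MLH3 had 42.1 CPM (38.4 to 46.0) and 29.3 CPM (22.6 to 37.5). The intervals of the libraries were apart for MND1, SYCP1 and SMC1B, with ZEA higher, and for MLH3, with ZEA lower. SYCP3 had 3 UMIs in the control and 0 in ZEA, where 3 counts, the limit taken for a count of 0, would be 1.40 CPM. Thinned to 500 UMIs, the ZEA shares of SYCP1 (1.34%), SYCP2 (2.79%) and MLH3 (1.65%) were below those of endothelial-like cells of that library. The endothelial-like shares were 1.62%, 3.08% and 1.80%, so that these members read as background. The MND1 share, 4.65% (3.41 to 6.17), was above that of endothelial-like cells, 3.16% (2.53 to 3.89), but the intervals overlapped. The SMC1B share, 1.96% (1.19 to 3.05), also overlapped that of endothelial-like cells, 1.39% (0.98 to 1.91). Neither MND1 nor SMC1B was thus clear of background by these intervals.

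The largest share of the SYCP1, SYCP2 and SMC1B UMIs lay in AURKA-high spermatocytes in the control and in round spermatid-like cells in ZEA. In the control the AURKA-high cluster held 31.1% of the SYCP1 UMIs, 49.3% of SYCP2, 55.7% of SMC1B and 54.9% of MLH3. In ZEA the round spermatid-like class held 57.7% of SYCP1, 56.1% of SYCP2, 50.5% of SMC1B and 63.1% of MND1, with 25.1% of the library's UMIs. MLH3 was spread in ZEA like the library itself: somatic clusters held 56.0% of its UMIs and 58.7% of all UMIs. ZEA had 8 late spermatocyte-like cells, so these shares cannot be told apart from the cells each library holds.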

How the data were processed

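The authors deposited raw UMI counts per gene and barcode for 1 control and 1 ZEA library. STAR and Cell Ranger 3.1.0 are listed for both libraries in the submitters' processing notes. Per the file headers the control matrix came from Cell Ranger 5.0.0 and the ZEA matrix from 3.1.0, so software version and group cannot be told apart. How barcodes were chosen, the build and the annotation: not given in the sources used here.

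Cells were kept with at least 500 UMIs, 200 genes and at most 20% mitochondrial UMIs. Scrublet in scanpy 1.11.5 marked 198 control barcodes and 1 ZEA barcode, which were left out. In ZEA the caller has therefore not worked, and doublets remain. The 2000 most variable genes, without members and related meiotic genes, were reduced to 30 components; cells were joined to 15 neighbours and clustered with the Leiden method of igraph 0.11.9 (resolution 1) without integration. A cluster that mixed germ and Sertoli markers was split again, a step chosen after seeing it. Clusters were named from 13 marker lists when the mean standardized level was at least 1, led the next list by 0.2 and at least 3 markers were enriched. The rebuilt names may differ from the study's.

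Counts were summed per class and library and given as CPM with exact Poisson intervals. Shares have exact Clopper-Pearson intervals, and log2 ratios exact conditional binomial ones. The ratio computation was tested on simulated data. Alternatives changed cell weights, depth, cell filters, doublets, clusters, class rules, scaling and count filters, and the HMGB4 windows were added after seeing the data. Genes named are all 7 members, the 5 highest and 5 lowest listed meiotic genes in round spermatids, and the 6 genes most like the members over clusters. Others are said where named. Members and lists were chosen with earlier results of these data known. The 7 member symbols were all found among RefSeq gene symbols.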

Additional observations from a re-analysis of the deposited data

How the results depend on the processing

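No paired analysis was possible because each group has 1 library. Under all alternatives except the HMGB4 windows, 3 to 5 members were at least 2-fold higher and none lower. SYCP1 had log2 ratios from 1.71 to 2.68, MND1 from 1.07 to 1.66, SMC1B from 1.09 to 1.46, SYCP2 from 0.84 to 1.24, TEX11 from 0.45 to 1.24 and MLH3 from -0.27 to 0.28. The members' median was 1.41 with cells thinned to 500 UMIs, when 3 members entered, and 0.95 when scaled by the median gene ratio. In the HMGB4 windows of 2000, 4000 and 6000 CPM upward, 0 members were at least 2-fold higher and their median was 0.58, 0.28 and 0.39. The number of members under 50% of their highest control class was 5, in place of 3, with doublets kept or unnamed clusters in their best class. Other meiotic genes at least 2-fold higher, 2 as reported, were 4 with equal weight per cell, with members among the variable genes, at resolution 0.5 or with unnamed clusters in their best class, 5 with doublets kept, 12 with no count filter and 1 in the 2000 and 4000 CPM windows. Those at least 2-fold lower, also 2, were 1 with equal weight per cell and in the 6000 CPM window, 0 with thinning, with at least 200 UMIs per gene and in the 2000 and 4000 CPM windows, 5 in cells of at least 5000 UMIs, 4 when scaled by the median gene ratio, and 6 with doublets kept, members among the variable genes, resolution 0.5 or unnamed clusters in their best class. The cause of these changes was not tested. Few counts limit SYCP3 in spermatids, and few cells limit the ZEA library before the spermatid stage.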
